A study of Saccharomyces cerevisiae with 6 samples.

Results

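The genes of sulfate uptake and reduction, 9 in number, were followed through 2 Hi-C maps of budding yeast grown without methionine. The genes were 9 of 6431 with a bin on the nuclear chromosomes. They were chosen by name and pathway, with no measured value, though earlier results of these data were known. Each gene was placed in the 10 kb bin that holds its midpoint, which gave 9 bins of 1216. In Hi-C, cells are fixed, their DNA is cut and rejoined, and each joined pair of fragments is counted as 1 contact between the places they came from.

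Both maps came from the MATa strain yMD291 after methionine depletion. Per its genotype, the strain carries ade2-1, can1-100, trp1-1, ura3-1, his3-11,15 and the double allele of leu2-3 and leu2-112. It also carries tor1-1, fpr::NAT and bar1. LacI-GFP and tetR-mCherry are driven by REV1 promoters at HIS3, and LacI and tetR by REV1 promoters at ADE2. No member lies on chromosome XV, where LacO repeats were inserted at 497047 and TetO repeats at 834487. The study's methods name biological replicates and a w303 background, whose chromosomes can differ from the reference used for the bins. The 4 remaining samples of the series (Ctrl and YBP2 strains, each -E2 and +E2) were not used, so no map of another condition stands beside these.

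Yeast takes up sulfate through the permeases Sul1 and Sul2. Met3, ATP sulfurylase, joins sulfate to ATP, Met14 phosphorylates the product, and Met16 reduces it to sulfite. Sulfite reductase, made of Met10 and Met5, turns sulfite into sulfide with the help of siroheme, which Met1 and Met8 make. When methionine is lacking the activator Met4 turns these genes on. Met4 does not bind DNA well by itself and is held at promoters by Cbf1, which binds CACGTG, and by Met31 and Met32, which bind sites with the core CTGTGG. Cbf1 is also a centromere protein, since each yeast centromere carries a copy of its site.

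The DNA at which these proteins act is shown for the members with a match, because the Cbf1 site stands both in some of the promoters and at the centromere beside MET14. The window ran from 250 bases before to 50 bases after the first base of the coding sequence, 300 bases in all, on the R64 reference. CACGTG, searched on both strands, was in 4 of the 9 member windows, those of MET14, MET16, MET10 and MET8, and in 175 of 6001 windows of protein-coding genes (2.92%). CTGTGG, also on both strands and not overlapping CACGTG, was in the MET10 window alone among members and in 6.85% of all windows. Capitals mark both motifs, CTGTGG appears here as its reverse complement, and each line reads 5′ to 3′ on the strand of the gene.
MET14, chrXI:439600-439621, minus strand: actaatttCACGTGatcaatat
MET16, chrXVI:877797-877818, minus strand: catcatttCACGTGgctagtaa
MET10, chrVI:213062-213113, plus strand: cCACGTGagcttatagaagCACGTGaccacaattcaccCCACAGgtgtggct
MET8, chrII:650151-650172, plus strand: cataatttCACGTGttataata
The MET14 site lay 228 bases before the coding sequence, the MET16 site 178 and the MET8 site 209. In MET10 the CACGTG copies lay 249 and 231 bases and the CTGTGG copy 212 bases before it. A match is a string of letters and not a measured binding site.

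MET14 is the member nearest to a centromere. Its coding sequence (YKL001C, chrXI:438777-439385, minus strand) starts 743 bases from CEN11 (chrXI:440129-440246). CEN11 is shown whole, on its minus strand, with the centromere version of the Cbf1 site in capitals, which starts at base 2 of 118.
CEN11: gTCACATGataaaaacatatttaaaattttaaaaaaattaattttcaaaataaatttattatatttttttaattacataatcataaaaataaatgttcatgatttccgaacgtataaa
The MET14 bin (chrXI:430001-440000) is therefore the neighbour of the bin that holds CEN11.

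The other members were spread along the arms. MET3 (YJR010W, chrX:456239-457774) lay 20.6 kb from its centromere. MET10 (YFR030W, chrVI:213312-216419) lay 66.3 kb away on the short right arm of VI, and MET1 (YKR069W, chrXI:571612-573393) 132.3 kb away. SUL2 (YLR092W, chrXII:323544-326225) lay at 174.0 kb and MET5 (YJR137C, chrX:678957-683285) at 244.8 kb. MET16 (YPR167C, chrXVI:876847-877632) lay at 321.2 kb, MET8 (YBR213W, chrII:650368-651192) at 412.5 kb and SUL1 (YBR294W, chrII:789235-791814) at 552.3 kb. SUL1 was also the only member within 30 kb of a chromosome end, at 22.7 kb. MET10, MET5 and MET16 lay 55.3, 64.6 and 70.8 kb from their nearest end.

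**Figure D1:**
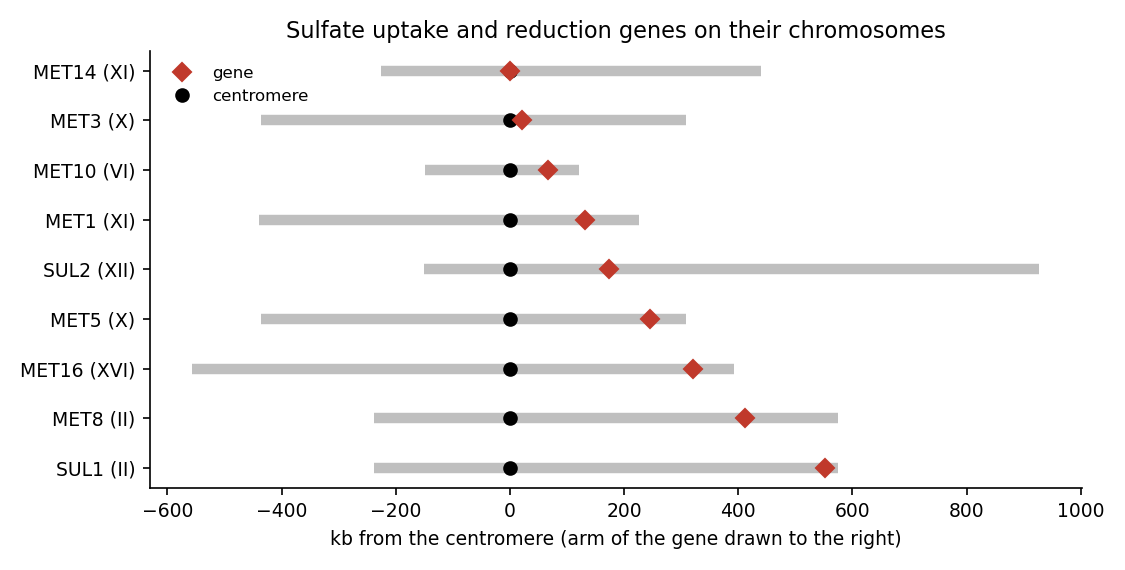
Chromosomes of the 9 genes as grey bars, with the centromere (black circle) at 0, the gene as a red diamond and the arm that holds the gene drawn to the right; the x axis is the distance from the centromere in kb. From top to bottom the genes lie farther out, MET14 at 1.11 kb and SUL1 at 552.3 kb.

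Member bins were covered as well as other bins. They held 4428 to 6502 contacts in replicate 1, against a median of 5341 over all whole bins, and 4069 to 6213 in replicate 2, against 4962. They held 24 to 39 GATC sites, the sequence cut by DpnII, against a median of 30. No 2 member bins shared a 50-base word in the reference. Whole maps held 3760159 and 3518507 contacts. Between chromosomes this came to 1.52 and 1.41 contacts per pair of bins, so a single pair is known only to within a few contacts. Intervals on contacts are exact Poisson intervals at 95% and cover counting error only.

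The share of a member's signal that went to other chromosomes followed no single order along the pathway. It was highest at MET14, with 45.5% and 44.7% in replicates 1 and 2, and at MET3, with 42.9% and 42.8%. MET1, the siroheme methyltransferase gene, had 35.8% and 35.1%, and MET10, which encodes a sulfite reductase subunit, 35.3% and 32.7%. These 4 genes are the ones nearest to a centromere. SUL2 had 32.2% and 33.2%, SUL1 32.3% and 30.9%, MET16 31.8% and 31.0%, and MET5 30.8% and 29.6%. MET8 was lowest in both maps, at 28.0% and 28.4%. Neighbours in this order from MET1 to MET5 differed by less than, or about as much as, the 2 maps of a gene, while MET14 and MET3 stood apart from the other 7 in both maps. The median over kept bins was 31.8%.

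Each value was also read against bins at a like distance from a centromere or, for SUL1, against other bins within 30 kb of an end. All bins with a value were used for this. For MET14, 6 of 63 such bins had a higher share, and for MET3 19 of 63. The rank of MET14 turned round with another measure, the mean signal per pair between chromosomes over kept bins only. By that level, 20 of 23 like bins lay above MET14, at 0.909 against a median of 0.994, and 6 of 23 above MET3. The ranks that follow are again of the share. MET1 was exceeded by 54 of 227 bins and MET16, the PAPS reductase gene, by 61 of 240. SUL2 sat in the middle of its class, exceeded by 114 of 227. MET5, the other sulfite reductase subunit gene, MET10, MET8 and SUL1 lay lower in their classes, exceeded by 109 of 182, 93 of 144, 155 of 240 and 59 of 84. These ranks are descriptions and were not tested.

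The members' levels with other chromosomes differed by the partner's distance from its centromere. In yeast nuclei the centromeres are gathered at one side and the arms extend from them, an arrangement named after Rabl. MET14 met the bins that hold the other 15 centromeres at 17.2 and 16.9 times the mean pair of bins between chromosomes, from 438 and 385 contacts. All 15 were met, from 13.5 times the mean pair for CEN1 to 20.1 for CEN14. MET3 met them at 7.29 and 7.23 times, from 178 and 160 contacts, and also met all 15. MET10 was near the mean pair, at 1.01 and 1.05 times. The other 6 members were below it. SUL1 had 4 and 3 contacts and MET8 5 and 4 with the 15 centromere bins, which is 0.142 and 0.113 times the mean pair for SUL1 and 0.183 and 0.167 times for MET8. MET16 had 2 and 8 contacts, at 0.0723 and 0.331 times. Of the 15 centromere bins, 9 had no contact with SUL1 in either map, and 9 had none with MET8.

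Away from the centromeres the order turned round. With partners more than 500 kb from their centromere and outside the ends, MET14 had 0.120 ± 0.00706 times the mean pair (SD over n = 2 maps, as for the next values), MET3 0.183 ± 0.0152 and MET10 0.258 ± 0.0256. In the same class MET1 had 0.587 ± 0.00753 and MET5 0.832 ± 0.164. MET16 had 1.06 ± 0.0268, MET8 1.14 ± 0.0228 and SUL1 1.41 ± 0.0744. SUL2 had 1.21 in replicate 1 and 1.28 in replicate 2. MET10 and MET1 had their peaks between these extremes. In these broad classes MET10 was highest with partners 20 to 50 kb from their centromere, at 2.36 and 2.44. Its values of 2.63 and 1.99 at 0 to 20 kb straddled these. In steps of 10 kb over all bins, MET10 was instead highest at 50 to 60 kb, with 3.05 and 2.69. The step at 10 to 20 kb had 3.01 and 2.00. By broad class MET1 was highest with partners at 50 to 100 kb, at 1.74 ± 0.0165. SUL1, the outermost gene, had 1.54 ± 0.00713 with bins within 30 kb of a chromosome end. That was low for its class, since other end bins had a median of 1.88 and 41 of 54 lay above SUL1. Some members ranked nearer the edge of their class. With partners over 500 kb out, 1 of 226 like bins lay above SUL2. With partners at 0 to 20 kb, 2 of 230 like bins lay above MET16 and 228 of 230 above MET8.

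**Figure D2:**
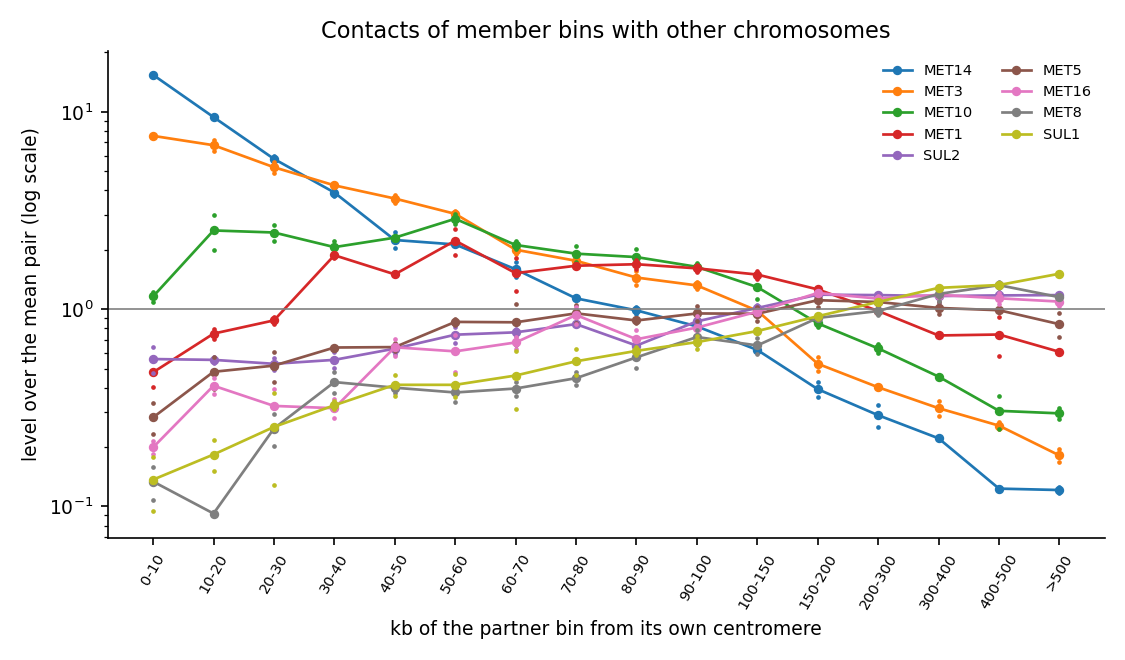
Level of each member bin with bins on other chromosomes, as a multiple of the mean pair between chromosomes (y axis, log scale), by the distance of the partner bin from its own centromere in kb (x axis, classes as given); lines join the means of both maps and small points are the single maps. MET14 and MET3 start highest and end lowest, and SUL1 and MET8 run the other way.

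To find partners beyond this arrangement, contacts were set against those expected from the mean of all pairs at like distances from their centromeres, with bins within 30 kb of an end as a class of their own. The ratio is called O/E below. Across all kept pairs of 10 kb bins between chromosomes, 0.0464% were called higher and 0.000183% lower than expected at an adjusted p under 0.05 by a two-sided exact Poisson test with Benjamini-Hochberg adjustment over 545328 pairs. Among 9173 pairs of a member bin with a bin on another chromosome, 5 were called higher (0.0545%) and 0 lower. At an unadjusted p under 0.05 there were 358. The share called was close to that over all pairs, and the 5 lay at 3 members, MET1, MET8 and MET14.

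The strongest partner of any member bin was met by MET1. The MET1 bin (chrXI:570001-580000) and a bin of chromosome III (chrIII:160001-170000), which holds SLM5, a mitochondrial tRNA synthetase gene, had 30 and 19 contacts, 49 in all against 3.66 expected. O/E was 15.7 and 10.9 in the 2 maps, with an interval of 9.91 to 17.7 on the pooled contacts and an adjusted exact Poisson p of 6.3e-33. The same chromosome III bin had 12 contacts against 4.50 with the bin just before MET1 and 9 against 2.91 with the bin just after it. The MET1 bin had 3 contacts against 2.73 and 5 against 3.07 with the bins on either side of the chromosome III bin. So the excess stood in one row of chromosome III and was highest at the MET1 bin itself. These bins share no 50-base word in the reference. The MET1 bin holds 1 annotated tRNA gene and the chromosome III bin 1 tRNA gene and 1 long terminal repeat of a Ty element, and the part of repeats that only this strain carries was not tested. The call held in each map alone and with a negative binomial in place of the Poisson (adjusted p = 1.6e-14).

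MET8, the gene of the last enzyme of siroheme synthesis, had 8 contacts in each map with a bin of chromosome XV (chrXV:110001-120000) that holds INO4, an activator gene of phospholipid synthesis, and ZEO1. The total of 16 stood against 2.91 expected, O/E was 5.29 and 5.74, and the adjusted exact Poisson p was 7.1e-04. The peak of this contact was not at MET8. The bin before it (chrII:640001-650000) had 33 contacts against 2.23 with the same chromosome XV bin, an O/E of 14.8, and the bin after MET8 had 9 against 2.21. The bin before MET8 holds 2 tRNA genes and 3 long terminal repeats, and the chromosome XV bin 2 tRNA genes, 2 long terminal repeats and part of 1 Ty element. The MET8 bin itself holds none of these, and none of these bins shares a 50-base word with the other. The call of the single MET8 pair was lost without either map (adjusted p = 0.521 without replicate 1 and 0.579 without replicate 2) and with the negative binomial (0.135).

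**Figure D3:**
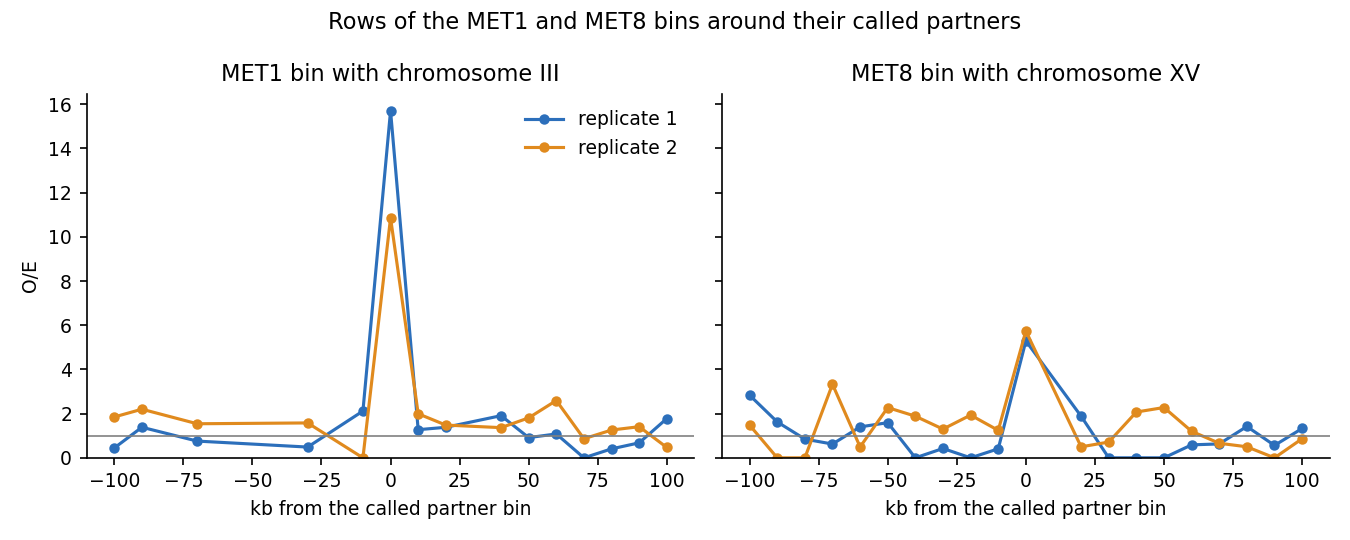
O/E (y axis) of the MET1 bin along chromosome III and of the MET8 bin along chromosome XV, by distance in kb from the called partner bin (x axis), in replicate 1 (blue) and replicate 2 (orange); bins that did not pass the filter are left out and lines join the rest. Each row has its highest value at the called bin, 15.7 and 10.9 for MET1 and 5.29 and 5.74 for MET8.

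The 3 calls of MET14 were with a bin that holds another centromere and with bins beside centromeres. With the bin of IRC22 and MNN1 on V, which holds CEN5 2.95 kb from its centre, it had 42 and 27 contacts, 69 against 29.5 expected (adjusted exact Poisson p = 4.9e-06). With the bin of ALG6 and YSP3 on XV, 8.36 kb from CEN15, it had 34 and 33 contacts, 67 against 31.3 (adjusted exact Poisson p = 2.0e-04). With the bin of CIT1 and ATO2 on XIV, 6.18 kb from CEN14, it had 32 and 27 contacts, 59 against 30.1 (adjusted exact Poisson p = 0.0118). The class of partners used for the expectation ran from 0 to 20 kb, and over all bins MET14 averaged 15.4 times the mean pair at 0 to 10 kb and 9.41 times at 10 to 20 kb. All 3 calls were lost with the negative binomial. Without replicate 1 all 3 were lost, and without replicate 2 the call on V held (adjusted exact Poisson p = 3.3e-04).

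Other leading partners rested on few contacts and were not called. For each member the 3 bins with the highest mean O/E are named by genes they hold. Of the permeases, SUL1 led with the bin of STB5 and OYE2 on VIII (13 contacts against 3.20), followed by ALD4 and GDH1 on XV (14 against 3.61) and YDR444W and ECM11 on IV (11 against 2.89). SUL2 led with CAF40 and SEC21 on XIV (6 against 1.42), LEA1 and PUS1 on XVI (8 against 2.20) and FIG4 and LEM3 on XIV (7 against 1.95). These partners of SUL1 and SUL2 lie 359.4 kb or more from their centromeres, far out as SUL1 itself is.

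MET3, ATP sulfurylase, and MET14, APS kinase, shared their leading bin, which lies in the ribosomal DNA of XII, with 5 contacts each against 0.619 and 0.650. In that bin O/E differed between maps, at 3.42 and 12.3 for MET3 and 3.28 and 11.6 for MET14. MET3 had its next values with AQY3 and DAK2 on VI (9 against 2.04) and ARN1 and EFM1 on VIII (9 against 2.16). MET14 had them with DAL2 and DCG1 on IX (10 against 2.63) and MCO6 and SPT10 on X (5 against 1.61). Apart from the bin on X and the ribosomal DNA, these bins lie about 25 kb from a chromosome end. They also lie 59.3 to 123.6 kb from their centromeres, and the expectation pools them with ends at every distance from a centromere.

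MET16 led with FLR1 and HHF1 on II (5 against 0.813), MRPL13 and MEH1 on XI (6 against 1.09) and TSR4 and DIS3 on XV (6 against 1.57). MET5 led with SLG1 on XV (5 against 1.09), IRC22 and MNN1 on V (5 against 1.56) and RPL4B and PSF1 on IV (5 against 1.56). All of these lie within 50 kb of their centromere. MET10 led with YAL065C and YAL064W-B on I (6 against 1.69), DAL2 and DCG1 on IX (11 against 3.46) and PZF1 and RPO26 on XVI (5 against 1.74). After chromosome III, MET1 had its next values with GLN3 and YEN1 on V (15 against 3.99, adjusted exact Poisson p = 0.0743) and VMA3 and SNU13 on V (9 against 2.42). After chromosome XV, MET8 had them with DFG10 and NEO1 on IX (8 against 2.26) and UIP3 and KTD1 on I (5 contacts, O/E 5.47 and 1.49).

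Summed over 30 kb windows of 3 by 3 bins, 152 of the 9173 member windows were called higher (1.66%) and 240 lower (2.62%), against 1.38% higher and 1.31% lower over all windows. The excess of low windows lay at SUL1, with 43 higher and 106 lower of 1011, and SUL2, with 6 and 66 of 994. MET10 had 45 and 30 of 1065, and MET5 1 and 7 of 1020. The windows of SUL1 depended on how ends were grouped. With ends split by their distance to the centromere, an alternative added after the data were seen, SUL1 had 5 higher and 3 lower windows, while SUL2 had 5 and 56, MET10 29 and 22 and MET1 15 and 14. Member windows called higher with end bins fell from 16 to 6 in that setting. Those of MET3 fell from 6 to 1 and those of MET14 from 2 to 0, while those of MET16 rose from 0 to 2 and of MET5 from 0 to 1. Over all windows that setting called 0.962% higher and 0.823% lower. With a negative binomial 6 member windows were called, all higher, against 0.0684% of all windows higher and 0.00513% lower. They were 3 of MET1 on chromosome III, 1 of MET8 on XV, 1 of SUL1 and 1 of MET3. That of SUL1 was with the bin of ALD4 and GDH1 on XV (73 contacts against 27.2). That of MET3 lay near the left end of VIII (41 against 13.4). Windows centred on neighbouring bins overlap, and the 3 of MET1 all hold its called pair with the bin of SLM5.

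By chromosome, the low values of the permeases were with the small chromosomes. Those of SUL1 were read with the undivided end class, and with ends split its low windows fell from 106 to 3. SUL2 had O/E of 0.403 and 0.556 with VI and 0.490 and 0.648 with III, and 1.22 in both maps with IV. SUL1 had 0.580 and 0.530 with VI and 0.627 and 0.510 with I, and 1.12 and 1.19 with XV. MET8, also far from its centromere, had 0.610 and 0.639 with III. MET3 was highest with VI, at 1.51 and 1.38. MET1 had 1.38 and 1.42 with VI and, from 153 contacts against 93.7, 1.67 and 1.81 with III. Without its called bin MET1 had 104 against 90.0 with III, at 0.963 and 1.36. MET14 was highest with IX, at 1.29 and 1.24, and had 0.823 and 0.895 with III. These are descriptions over 15 chromosomes a member.

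Whether the genes of the pathway met each other was asked of the 33 pairs of members on different chromosomes. They had 113 contacts in all against 119.8 expected. Mean O/E over the pairs was 0.840 and 0.844 in replicates 1 and 2 and the median 0.738 and 0.742, against a mean of 1.0 and a median of 0.844 over all pairs between chromosomes. Of the 33 pairs, 6 lay above 1 in both maps and 12 below 1 in both, which is 18.2% and 36.4%, against 20.5% and 34.1% of all pairs. None was called, and 1 had an unadjusted p under 0.05. At 1 to 4 contacts for most pairs, a difference of less than several fold was not detectable at this depth.

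The pair with the most contacts was that of the members nearest to a centromere. MET3 and MET14 had 18 and 9 contacts, 27 in all, which is 8.20 times the mean pair between chromosomes. Pairs at like distances from their centromeres were expected to have 25.4, so O/E was 1.36 and 0.742. The highest O/E was that of the bins of MET16 and MET5, PAPS reductase and a sulfite reductase subunit. The MET5 bin also holds HOM6, so its contacts cannot be assigned to MET5 alone. Each map had 6 contacts, 12 in all against 4.89 expected, an O/E of 2.35 and 2.57 with an interval of 1.27 to 4.29, and the adjusted exact Poisson p was 1. Next came SUL2 with MET14, at 3 and 1 contacts against 1.88, and MET10 with MET1, at 3 and 3 against 3.55. MET3 with MET10 had 3 and 4 against 4.53.

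At the other extreme 5 pairs had 0 contacts in both maps. SUL1 met neither MET3 (2.48 expected) nor MET14 (2.60 expected), MET8 met neither MET3 (0.864) nor MET14 (0.908), and MET14 did not meet MET5 (1.41). For these a count of 0 allows up to 3 contacts. SUL1 and SUL2 themselves, the permeases, had 0 and 1 contact against 3.28. The subunits of sulfite reductase, MET5 with MET10, had 1 and 0 against 2.59. The siroheme genes, MET1 with MET8, had 2 and 2 against 3.18. The remaining pairs had 1 to 5 contacts.

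In 30 kb windows the pairs held more contacts, and 3 of 33 were called, 1 higher and 2 lower. Over all windows 1.38% were called higher and 1.31% lower. MET10 with MET1 had 68 contacts against 41.5 expected, O/E was 1.404 and 1.776, and the adjusted exact Poisson p was 0.0167. SUL2 with MET10 had 13 against 36.0, O/E was 0.350 and 0.347, and the adjusted p was 0.0038. SUL1 with MET3 had 4 against 16.1, O/E was 0.340 and 0.0909, and the adjusted p was 0.036. The last call was lost with ends split by their distance to the centromere, where pooled O/E was 0.735 and the adjusted p was 0.991, and with genes placed by their first coding base (0.0913). Each of the 3 was lost without either map and with the negative binomial. Mean O/E over the 33 windows was 0.964 and 0.973, against 0.987 over all windows.

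**Figure D4:**
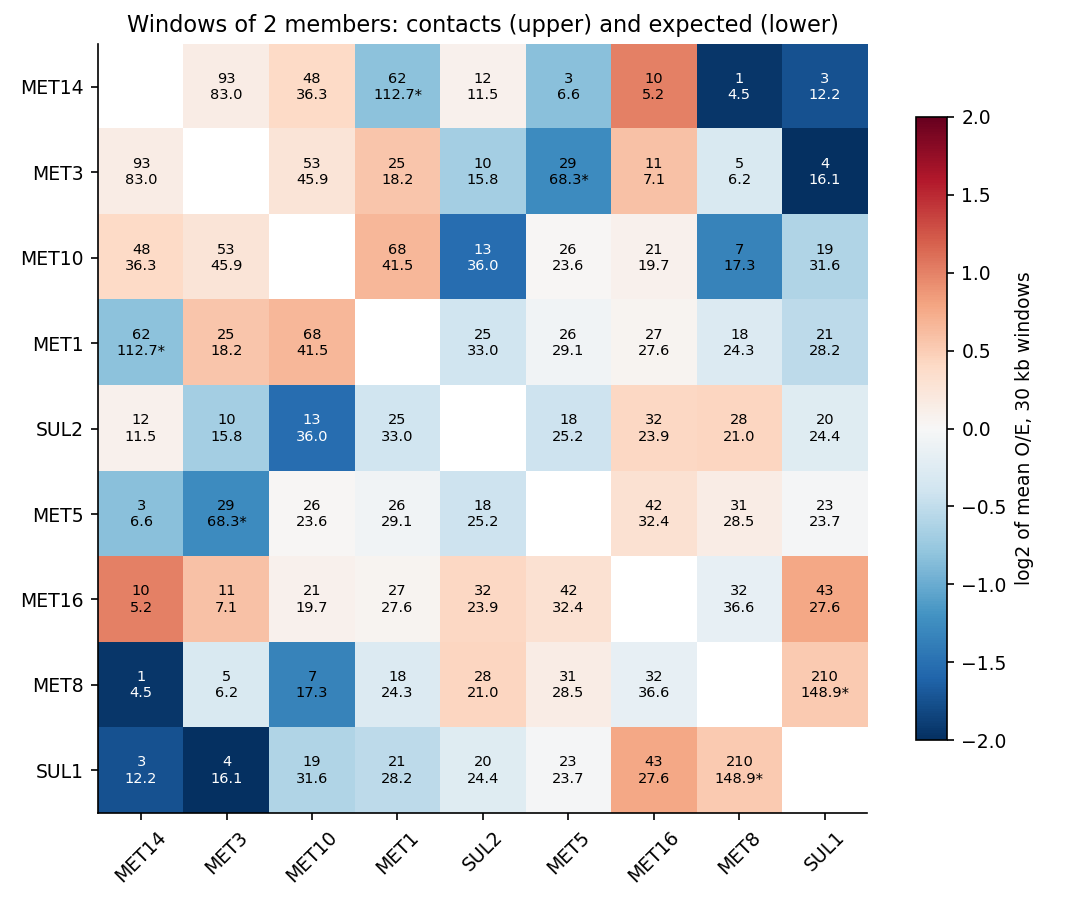
Windows of 3 by 3 bins around each pair of members, ordered by distance from the centromere; colour is log2 of the mean O/E of both maps, limited to 2 in either direction, and the numbers are contacts of both maps (upper) and those expected (lower), with * for pairs on one chromosome. MET3 with MET14 holds 93 contacts against 83.0, and the corner of the outermost with the innermost genes holds the fewest.

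By gene and in single bins, no member had more contacts with the other members than expected beyond counting error. MET16 had 27 contacts against 23.8 over its 8 pairs (ratio interval 0.748 to 1.65), MET5 28 against 25.4 and MET3 40 against 38.1. SUL1 had 11 against 24.0 over its 7 pairs, a ratio of 0.458 and an interval of 0.229 to 0.819. With ends split by their distance to the centromere it had 11 against 19.4, a ratio of 0.569, and the interval of 0.284 to 1.02 held 1. In windows SUL1 had 133 against 163.8.

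Within a chromosome, 3 pairs of members could be read, with the mean at the same distance as the expectation. SUL1 and MET8, 140 kb apart on the right arm of II, had 15 and 17 contacts, 32 against 24.1. O/E was 1.22 and 1.45, and 161 of 759 pairs at this distance on other chromosomes were higher. MET3 and MET5, 230 kb apart on the right arm of X, had 1 contact in each map, 2 against 12.1. O/E was 0.161 and 0.170, 647 of 661 pairs at this distance were higher, and the adjusted exact Poisson p over all pairs at 20 kb or more was 0.0158. MET14 and MET1 lie on either side of CEN11, 140 kb apart. They had 0 and 5 contacts against 19.2, O/E was 0 and 0.537, 743 of 771 pairs were higher, and the adjusted p was 0.0057. Both calls, MET3 with MET5 and MET14 with MET1, were lost with the negative binomial. The maps of MET14 with MET1 differed, and in 30 kb windows the pair had O/E of 0.531 and 0.607.

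The profile of each member along its own chromosome was read at 20 kb or more, where 4.6% of all pairs were called higher and 4.68% lower by the exact Poisson test over 43894 pairs. Among 585 pairs of member bins 42 were called higher (7.18%) and 52 lower (8.89%). Most of the low calls, 31 of the 52, came from MET14 alone. With the negative binomial 2 member pairs were called higher and 1 lower, against 0.447% of all pairs higher and 0.146% lower. These were SUL2 with the bin of STM1, MET5 with that of CDC6 and MET14 with that of UGP1 and TUL1, and all other calls of member bins within chromosomes were lost.

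MET14 had fewer contacts with its chromosome than the mean at every distance from 20 kb outward. Its O/E was 0.989 and 0.949 at 10 kb, 0.653 and 0.640 at 30 to 50 kb, 0.478 and 0.522 at 60 to 100 kb and 0.219 and 0.193 over 200 kb. Of its 60 pairs at 20 kb or more, 31 were called lower and 0 higher. With the negative binomial 1 of the 31 held, with the bin of UGP1 and TUL1 60 kb away (28 contacts against 82.3, adjusted p = 0.0465). MET3 showed a milder form of this. It had 1.01 and 0.872 at 30 to 50 kb, 0.683 and 0.562 at 110 to 200 kb and 0.346 and 0.435 over 200 kb, with 8 of 65 pairs called lower and 1 higher. That 1, with a bin 60 kb away on the other arm of X (117 contacts against 83.0), lay across the centromere.

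MET10 and MET1 had more contacts than the mean with bins on the other arm. MET10 lies 66.3 kb from CEN6. With 4 bins at that distance on the left arm it had 135 contacts against 68.9, and O/E was 2.37 and 1.56. Of its 19 pairs 6 were called higher and 0 lower, and all 6 were lost with the negative binomial. With the bin of GYP8 and STE2, 130 kb away and 63.6 kb from CEN6, it had 37 contacts against 16.6 (adjusted exact Poisson p = 7.6e-04). MET1 had 66 against 38.2 with the 4 like bins of the left arm of XI, at O/E of 1.59 and 1.89. Its leading bins, of HOT13, TOA2 and MSN4, lay 240 to 290 kb away across the centromere with 14 to 24 contacts each and O/E of 2.41 to 2.71. These bins lie 105.2 to 155.2 kb from CEN11 and the MET1 bin 134.8 kb, and their calls were lost with the negative binomial.

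MET5 and MET16 each had their leading bin on the other arm too, farther from the centromere than they are themselves. MET5, toward the right end of X, had 401 contacts with bins over 200 kb away at O/E of 1.404 and 1.387. Its leading bin, that of CDC6 on the left arm, lay 610 kb away, 361.4 kb from CEN10 against 244.8 kb for MET5, with 16 contacts against 4.04. There O/E was 5.29 and 2.55 and the adjusted exact Poisson p was 4.3e-04, and the call held with the negative binomial (0.0231). With the 3 bins within 30 kb of CEN10 MET5 had 17 contacts against 38.5. MET16 led with a bin 850 kb away at the left end of XVI, which holds the S-adenosylmethionine permease gene SAM3 and the homocysteine methyltransferase gene SAM4. They had 10 contacts against 2.85, O/E was 2.73 and 4.35, and the adjusted exact Poisson p was 0.0221, a call lost with the negative binomial. That bin lies 531.0 kb from CEN16 and MET16 321.2 kb. With the 2 bins within 30 kb of CEN16 MET16 had 6 against 15.7.

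MET8, on the right arm of II, had more contacts on the side of the end. Its O/E was 1.33 and 1.29 at 20 kb toward the end, against 1.03 and 1.04 toward the centromere. At 60 to 100 kb it had 1.28 and 1.19 toward the end, against 0.864 and 0.879 toward the centromere. It had 0 contacts with the 2 bins within 30 kb of CEN2, where 11.9 were expected. SUL1, on the same arm and with all but 1 of its bins toward the centromere, had 1.42 and 1.33 at 30 to 50 kb and 1.49 and 1.56 at 60 to 100 kb, and 6 of 73 pairs were called higher and 0 lower.

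SUL2 lies on the right arm of XII before the ribosomal DNA, whose annotated genes start 126.8 kb from the centre of the SUL2 bin and end at 164.5 kb. Toward the ribosomal DNA its O/E was below 1 at 10 to 30 kb and above 1 in both maps at 60 to 120 kb. At 30 kb, with the bin of REA1, it had 145 contacts against 202.2, O/E was 0.755 and 0.674, and the pair was called lower (adjusted exact Poisson p = 9.6e-04). The 4 bins at 90 to 120 kb had 221 contacts against 99.8 and O/E of 2.32 and 2.16. The 8 bins at 180 to 250 kb had 56 against 83.7 and O/E of 0.754 and 0.559. Farther out, values above and below 1 alternated, such as 1.85 and 1.89 at 310 kb. The highest was the bin of STM1 at 120 kb, with 54 contacts against 18.0, O/E of 2.71 and 3.32 and an adjusted exact Poisson p of 1.9e-09. Past the ribosomal DNA, distances hold for the reference only, since the number of its repeats in this strain was not measured.

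**Figure D5:**
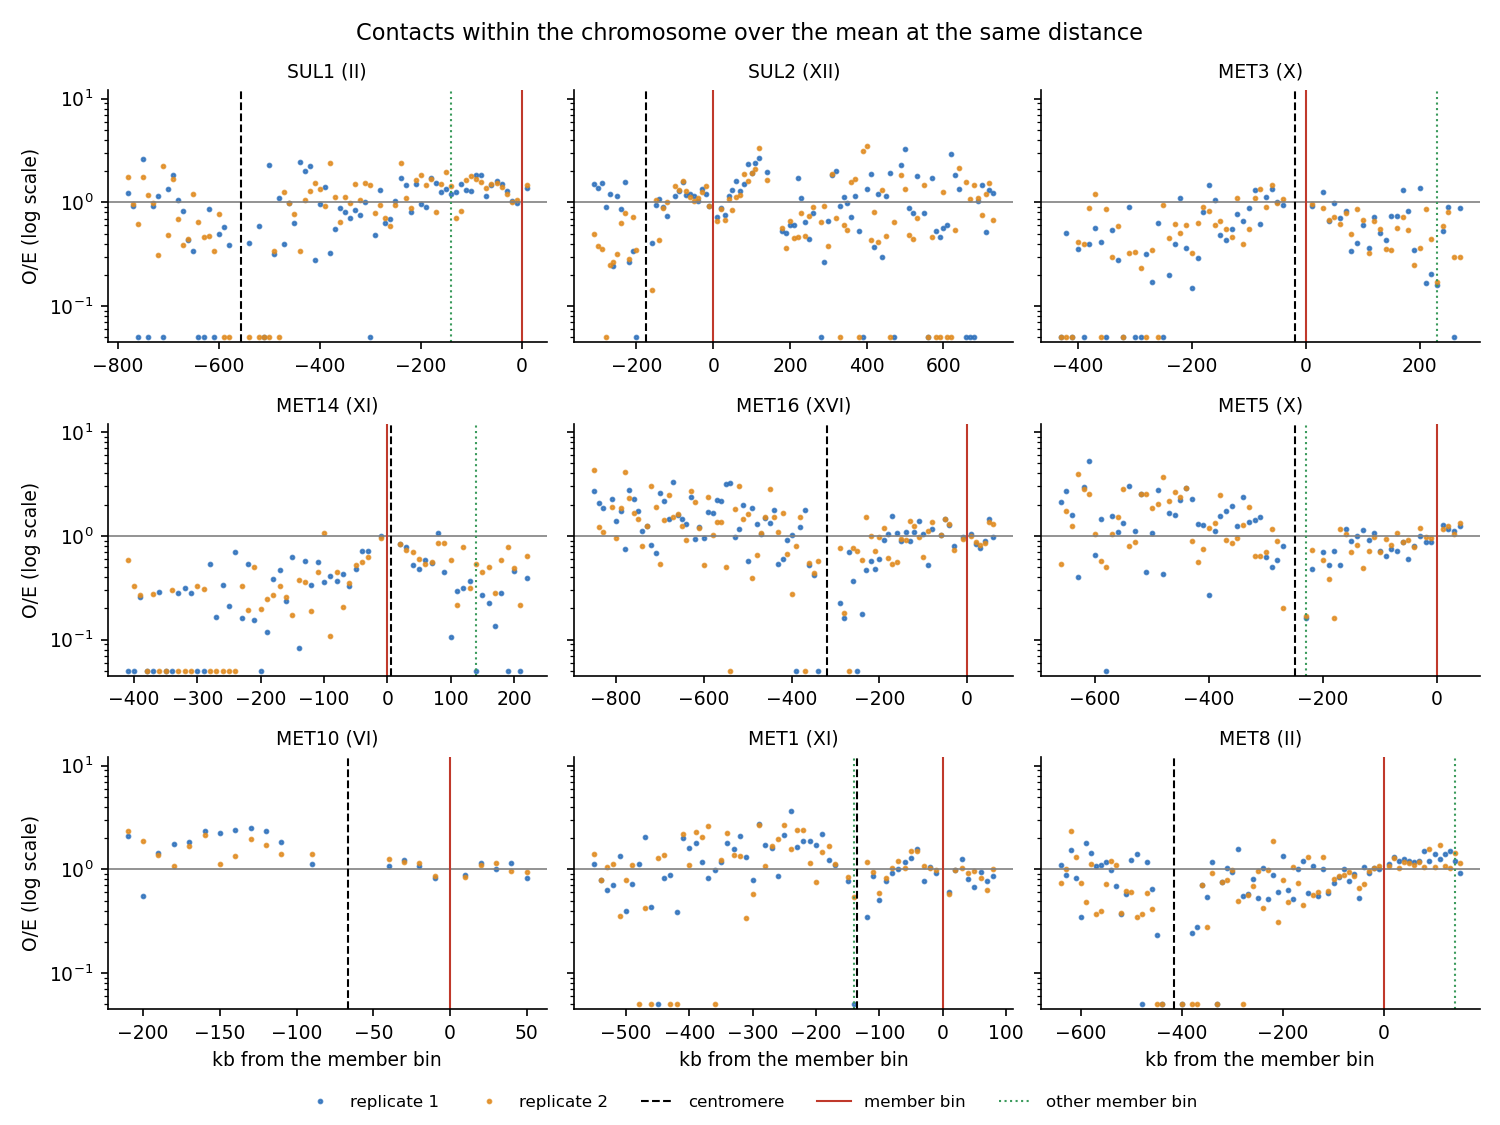
O/E within the chromosome (y axis, log scale) by distance in kb from the member bin (x axis, increasing with the reference coordinate), in replicate 1 (blue) and replicate 2 (orange), with the centromere dashed, the member bin in red and another member on the chromosome dotted green; values under 0.05, 0 included, are drawn at 0.05. MET14 runs low on both sides, MET10, MET1, MET5 and MET16 have values above 1 across the centromere, and SUL2 climbs to 3.01 at 120 kb.

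Close to the gene, MET1 and MET10 lay where contacts across the bin were sparse. Between the 3 bins on one side of a bin and the 3 on the other, MET1 had O/E of 0.699 and 0.733 (1079 contacts), and 45 of 962 bins were lower. MET10 had 0.789 and 0.737 (1752 contacts), with 64 bins lower. MET14 had 0.860 and 0.726, with 97 lower, and the centromere lies in that stretch. MET16, SUL2, MET8 and MET5 had 0.968 to 1.10, around the median of 0.989. SUL1 and MET3 had too few kept bins on one side. With the next bin MET1 had O/E of 0.600 and 0.585 toward the end, and 0.926 and 0.982 toward the centromere.

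Other genes of the pathway were set beside the members in the same way. For the 6 regulator genes MET4, MET28, CBF1, MET31, MET32 and MET30, 51 pairs of bins had a mean O/E of 1.00 and 0.876. For 25 genes that make or carry homocysteine, methionine, cysteine and S-adenosylmethionine, 205 pairs of bins had 0.977 and 1.03. HOM6, among the 25, lies in the MET5 bin, so its pairs with members repeat those of MET5. Of the 256 pairs 55 lay above 1 in both maps (21.5%) and 90 below (35.2%), 43 had no contact, and none was called. By the exact Poisson test 14 had an unadjusted p under 0.05. The 3 highest were MET3 with MUP3, a methionine permease gene (9 contacts against 2.16), MET1 with SAH1, the S-adenosylhomocysteine hydrolase gene (15 against 3.99), and MET8 with MET30, a subunit gene of the ubiquitin ligase that restrains Met4 (8 against 2.26). Their bins are the ones named above by ARN1 and EFM1, by GLN3 and YEN1 and by DFG10 and NEO1. Of the pairs without contact, those with most expected were MET1 with MET13, a methylenetetrahydrofolate reductase gene (4.07), MET16 with MUP3 (3.601) and MET1 with JLP1, a sulfonate dioxygenase gene (3.03).

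In 30 kb windows 6 of the 256 pairs were called higher and 7 lower, against 1.38% and 1.31% of all windows. With the negative binomial none was called. With ends split by centromere distance, where 0.962% of all windows were called higher and 0.823% lower, 3 stayed higher, MET3 with MUP3 (60 contacts, adjusted exact Poisson p = 0.0017), MET10 with MUP3 (81, 0.0116) and MET1 with MUP1, the high affinity methionine permease gene (60, 0.013). SAM1, an S-adenosylmethionine synthetase gene, stayed low with MET10 (4 contacts, 0.0103) and MET1 (9, 0.0149). By its bin centre MUP3 lies 80.6 kb from CEN8 and within 30 kb of an end.

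The members' rows were also compared with those of all bins on other chromosomes, in 50 kb blocks of O/E, as Pearson r across blocks that are on neither chromosome. Blocks share the libraries and are not independent, so no p is given. The rows repeated between maps with r from 0.143 for MET3 to 0.604 for SUL1, over 224 to 240 blocks. SUL1 was most like bins 23.2 to 26.9 kb from the ends of IV, XII and VII, with mean r of 0.612, 0.586 and 0.582. SUL1 and these bins fall in the undivided end class of the expectation, so r does not separate likeness from that shared class. SUL2 also resembled bins near ends, those of VII, XV and XI, at 0.510, 0.491 and 0.478. MET14 and MET3 were most like bins 14.8 to 26.4 kb from centromeres of X, VI, XIII and XI, at 0.404 to 0.526, with r differing between maps (for MET14 on XIII, 0.243 and 0.707). MET10 was most like the bin of DAL2 on IX (0.439), MET1 that of BUD23 on III (0.381), MET5 that of HOS4 on IX (0.338) and MET8 that of EAF1 on IV (0.323). These values are the highest among 994 to 1065 bins compared for each member. For each member listed here but MET1, the top value lay above the r of its own row between maps. That r was 0.143 for MET3 and 0.281 for MET14. Likeness was not tested. No member was among the 3 bins most like another.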

How the data were processed

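The deposited values are a balanced contact signal for each pair of 10 kb bins on sacCer3. The authors made them with HiC-Pro from DpnII-digested libraries and balanced each library by iterative correction. Replicates 1 and 2 of 1 group were used, and 4 samples were not. Members and lists were chosen with earlier results of these data known. Chromosome lengths of the R64 reference (RefSeq) equal those of the deposited bin table, and sequences are from it.

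Bin factors were recovered from the lowest signal, and every listed value (493701 and 477591) times both factors was whole within 0.01. Bins with contacts to at least a share of 0.5 of partners were kept, with member bins always kept (1087 bins, MET14 by this exception). Expectations used classes with edges at 0, 20, 50, 100, 200, 300 and 500 kb from the centromere and an end class of 30 kb, or the distance within a chromosome. Contacts of both maps were added for two-sided exact Poisson tests, adjusted over all pairs. p-values compare loci within these maps, not cultures. Named partners are the 3 highest by mean O/E over 1 in both maps with 5 or more contacts, at 50 kb or more within chromosomes. Likeness is the highest mean Pearson r. The bin most like MET16 is not reported here. Scripts were tested on simulated data. Python 3.11.15, numpy 2.4.6 and scipy 1.17.1 were used.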

Additional observations from a re-analysis of the deposited data

Results flagged for a closer look

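Contacts with the mitochondrial genome enter no comparison above, and every member bin had more than the 3 that a count of 0 allows. A bin of this depth at the median rate given below would pass that cut too, so passing it sets no member apart. Over both maps the permease bins had 15 (SUL1) and 10 (SUL2). Along the path from sulfate to sulfide there were 14 for MET3, 12 for MET14, 21 for MET16, 11 for MET5 and 10 for MET10. The siroheme genes had 22 (MET1) and 23 (MET8), the highest. Per 1000 contacts between chromosomes the members had 2.43 (MET14) to 6.97 (MET8), against a median of 3.59 and quartiles of 2.77 and 4.65 over kept bins. No control samples stand beside these maps, and no cause was tested.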

How the results depend on the processing

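The call of MET1 with chromosome III held under all 8 alternatives tried for it, and the 7 other called pairs and windows kept their side of 1 under theirs. Mean O/E of the 33 member pairs between chromosomes was 0.901 with no filter on bins, 0.942 with genes placed by their first coding base, 1.03 with no strata, 1.04 with the product of own levels, 0.969 in windows and 0.740 as a median. It was 0.848 with ends split by centromere distance, a setting chosen after the data were seen, and 0.840 to 0.844 with either map left out. Called member pairs numbered 1 with no strata and 1 with the product of own levels (O/E of MET3 with MET14 was 8.20 and 8.36 there), and 3 in windows. Called contacts of member bins between chromosomes numbered 14 with no filter (579 over all pairs of bins), 180 with no strata (5295), 158 with own levels (4098), 1 with the negative binomial (107) and 2 without either map (98 and 105), against 5 (254) as reported. Called windows numbered 615 (25346 over all), 3214 (171106), 3237 (169531) and 6 (401) under the same settings, 190 (9732) with ends split and 36 to 49 (1216 and 1616) with 1 map, against 152 higher and 240 lower (14671 in all). Called contacts within chromosomes numbered 3 (260 over all) with the negative binomial and 19 to 35 (1183 and 1395) with 1 map, against 94 (4073). The mean of the 3 pairs on one chromosome was 0.589, 0.805 in windows and 0.459 to 0.720 with 1 map. The mean level between chromosomes was 0.993, 1.05 with no filter and 0.985 on a balance between chromosomes. Of 50 leading partners 46 kept their side of 1 under every alternative, and of 36 member pairs 14. Depth limits single pairs to differences of several fold. No paired analysis was possible because both maps belong to 1 group.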
